A study of Mus musculus with 2 samples.

Results

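The genes described here are 10 signals that liver endothelial cells are known to send or receive: Wnt2, Wnt9b, Rspo3, Bmp2, Bmp6, Hgf, Inhbb, Kit, Dll4 and Efnb2. They were chosen by name, and all 10 had 1 row among the 32285 genes of the deposited matrices. They were read in liver non-parenchymal cells, which leave out hepatocytes and comprise endothelial, stellate, immune and bile duct cells, from mice injected intraperitoneally with CCl4, a hepatotoxin that causes fibrosis, for 8 weeks. There was 1 single-cell library from Mfap2+/+ mice, the wild type, and 1 from Mfap2-/- mice, which lack the extracellular microfibril glycoprotein encoded by Mfap2. Both groups had received CCl4, and no untreated library was analysed here. The labels give neither the strain, age and sex of the animals nor how many were used for each library, so genotype, animal and cell preparation cannot be told apart.

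Endothelial cells are known to shape the liver through signals they release, which are called angiocrine. Along the liver lobule, from the portal tract to the central vein, hepatocytes differ in their gene programs, and Wnt ligands and R-spondin 3 from endothelial cells near the central vein are known to maintain the pericentral program. BMP ligands from sinusoidal endothelial cells are known to set hepcidin, the iron hormone of hepatocytes, and hepatocyte growth factor drives hepatocyte proliferation. Notch and ephrin signalling pattern vessels into arterial and venous territories.

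The Mfap2+/+ library held 11783 barcodes and 82499307 UMIs (unique molecular identifiers, each counted as 1 captured RNA molecule), and the Mfap2-/- library held 12872 barcodes and 118226367 UMIs. The median barcode had 4685 and 6511 UMIs. After filters on cells, 10336 and 11428 cells were kept. Mfap2 itself, the check of the labels, had 215 UMIs in the kept Mfap2+/+ cells and 2 in the kept Mfap2-/- cells. The libraries shared 40 cell barcodes, 0.339% and 0.311% of theirs. With 1 library for each genotype no test between genotypes was possible, and the intervals given are 95% counting intervals that cover counting error only.

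A cell was called endothelial when its UMIs of Ptprb, Kdr, Cdh5 and Egfl7 summed to at least 3. This gate held 1705 Mfap2+/+ cells (16.5%, interval 15.8% to 17.2%) and 2209 Mfap2-/- cells (19.3%, interval 18.6% to 20.1%). The log2 ratio of those shares was 0.23 (0.15 to 0.31). At the edge of the gate, 262 and 369 of these cells had exactly 3 such UMIs, while 561 and 954 cells with 2 lay just outside. The gate was mixed: 47.6% of its Mfap2+/+ cells and 46.1% of its Mfap2-/- cells also passed the gate of another cell type. Most of these overlapped with macrophages and monocytes (41.2% and 37.6%), and 15.3% and 14.4% overlapped with stellate cells, the vitamin A-storing pericytes of the liver. Sub-gates split the cells further. The sinusoidal genes Stab2, Clec4g, Oit3 and Gpr182 alone marked 46.1% and 54.5% of the gate, the vascular genes Vwf, Cd34, Plvap and Sox17 alone marked 4.57% and 2.81%, and both sets marked 20.1% and 18.3%.

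In the remaining 29.3% and 24.4% of the gate, the endothelial label was not borne out by other endothelial genes. Pecam1, Tie1, Tek, Esam, Ramp2 and Eng summed to 177 and 186 UMIs per 1000000 of the summed UMIs (CPM) in those cells, below the 299 and 323 CPM of B cells, and against 1001 and 977.6 CPM in the whole gate. Lyz2, a myeloid gene, stood at 4535 and 3558 CPM in them. The vascular sub-gate held Dcn, a gene of stellate cells and fibroblasts, at 4978 and 2163 CPM. The ratio of each signal is therefore given for the whole gate and, beside it, for the 893 and 1191 endothelial cells that passed no other gate and for the 786 and 1204 cells of the sinusoidal sub-gate. Counts over pathway lists are given for all 3 as well, to be read against all genes. In cells that passed no other gate, 10.9% of genes were at least 1.5-fold higher in the Mfap2-/- library and 14.5% lower. In the sinusoidal sub-gate these shares were 14.6% and 11.1%. The 6 endothelial genes named above summed to 2659 and 2145 CPM in cells that passed no other gate. There 0 were higher and 6 lower in the Mfap2-/- library. In the sinusoidal sub-gate they summed to 1146 and 1107 CPM, with 4 higher and 2 lower. The part of these differences in the ratios of the signals in those cells was not tested. The sinusoidal sub-gate still held Lyz2 at 1346 and 1203 CPM.

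All 10 signals were at least 2-fold higher in the endothelial gate than in all other cells of the same library, in both libraries. The background share was 19.7% of 17103 genes with at least 20 UMIs in the Mfap2+/+ library and 20.8% of 18231 in the Mfap2-/- library. The median log2 ratio of endothelial over other cells was 3.33 and 3.58 for the 10 signals, against 0.26 and 0.25 for all genes. The lowest ratios were those of Kit, at 1.03 and 1.28, and Hgf, at 1.20 and 1.84, both of which had a further cell source. Dll4, Wnt2 and Inhbb were above 4 in both libraries, with Dll4 at 4.89 and 4.06, Wnt2 at 4.41 and 4.11 and Inhbb at 4.31 and 4.14. B cells, which are not known as a source of these signals, served as a guide to the level of free RNA. All 10 stood at or below 9.16 CPM in Mfap2+/+ B cells and at or below 19.3 CPM in Mfap2-/- B cells. Single Mfap2-/- B cells held up to 8 Efnb2 UMIs, 7 Kit UMIs and 7 Bmp6 UMIs. How much of the B-cell level was free RNA was not tested.

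**Figure D1:**
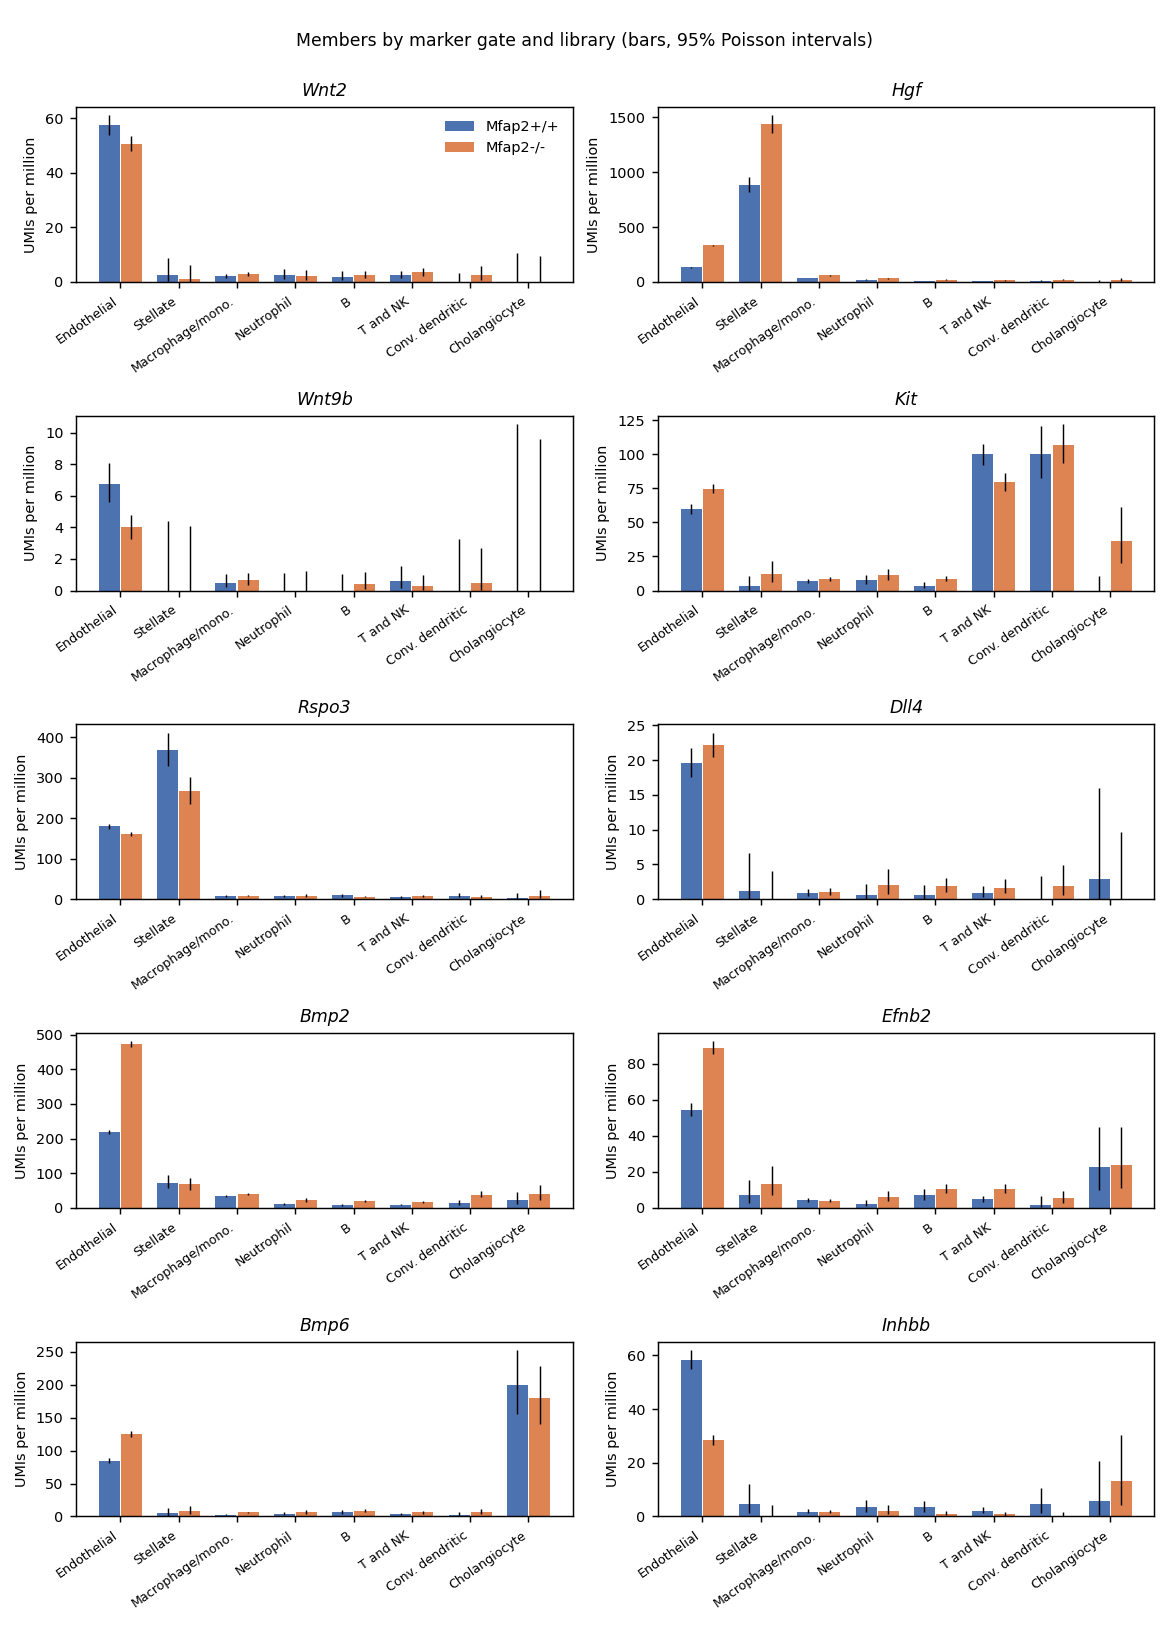
Level of each signal in CPM (vertical axes, separate for each gene, starting at 0) in 8 marker gates; bars show the Mfap2+/+ and Mfap2-/- libraries, 1 each, with 95% Poisson intervals. Hgf and Rspo3 have a second bar pair in stellate cells, Kit in T and NK cells and in conventional dendritic cells, and Bmp6 in cholangiocytes.

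Between the genotypes, 3 of the 10 signals were at least 1.5-fold higher in the Mfap2-/- endothelial gate (Bmp2, Hgf and Efnb2) and 2 were at least 1.5-fold lower (Wnt9b and Inhbb). Of 16735 genes with at least 20 UMIs, 17.4% were that much higher and 7.48% that much lower. The median log2 ratio of the 10 signals was 0.25, against 0.09 over all genes. In endothelial cells that passed no other gate the counts were 2 higher and 2 lower, where 10.9% and 14.5% of 12717 genes passed, and Efnb2 was just short of the fold at a log2 ratio of 0.58. In the sinusoidal sub-gate they were 3 higher and 2 lower, where 14.6% and 11.1% of 14866 genes passed, 25.6% in all.

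**Figure D2:**
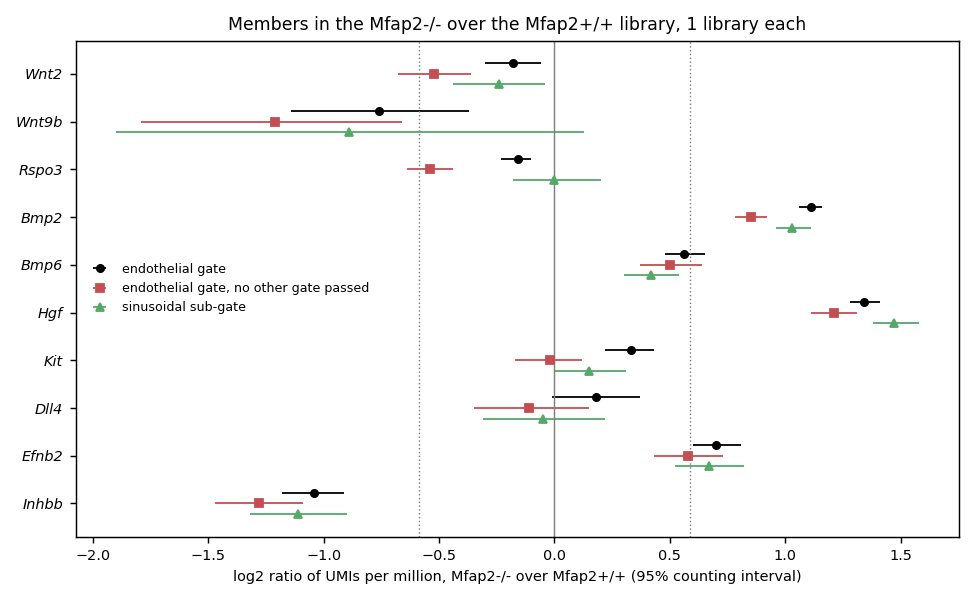
Log2 ratio of the Mfap2-/- over the Mfap2+/+ library (horizontal axis) for each signal in the whole endothelial gate, in its cells that passed no other gate, and in the sinusoidal sub-gate; lines are 95% counting intervals and dotted lines mark 1.5-fold. The points of Bmp2, Hgf, Bmp6 and Efnb2 lie to the right of 0 and those of Inhbb and Wnt9b to the left in all 3 sets of cells, with the Wnt9b interval reaching past 0 in the sinusoidal sub-gate.

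Wnt2, Wnt9b and Rspo3 form the Wnt arm. Wnt2 and Wnt9b are secreted Wnt ligands, and Rspo3 is an R-spondin, which binds Lgr receptors and keeps Frizzled receptors on the cell surface by removing the ligases Znrf3 and Rnf43. Wnt2 (ENSMUSG00000010797) lies on the reverse strand at chr6:17988940-18030585, on GRCm38 with GENCODE M21, as do all positions below. Wnt2 stood at 57.4 CPM (53.9 to 61.0, 1018 UMIs) in the Mfap2+/+ endothelial gate and at 50.6 CPM (48.0 to 53.4, 1418 UMIs) in the Mfap2-/- gate, a log2 ratio of -0.18 (-0.30 to -0.06). The ratio was -0.52 in endothelial cells that passed no other gate, from 149 to 104 CPM, and -0.24 in the sinusoidal sub-gate. Wnt2 UMIs were found in 24.1% and 24.9% of endothelial cells. With every cell thinned to 1000 UMIs these shares were 8.10% and 6.29%, and 0.108% and 0.204% in B cells. Before thinning the median depth was 6731 and 8630 UMIs in endothelial cells and 3517 and 4851 in B cells. Outside the endothelial gate the highest Wnt2 level of any gate with at least 50 cells was 3.54 CPM, in Mfap2-/- T and NK cells. The 2 genes most like Wnt2 across endothelial cells were Cdh13 (Pearson r of log-scaled UMIs 0.45 and 0.46) and Rspo3 (0.41 and 0.42). These likeness values describe 1705 Mfap2+/+ and 2209 Mfap2-/- cells, which share a library and the mixed gate, over 10180 genes.

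Wnt9b (ENSMUSG00000018486, reverse strand, chr11:103727364-103749821) was the sparsest signal by UMIs, and its promoter is shown because the gene passed 1.5-fold. The 250 bases before its start site, chr11:103749822-103750071 on the reverse strand of GRCm38.p6 (RefSeq), held none of 5 motifs searched on both strands. These motifs, which do not share letters at any site printed here, were GTGGGAA for the Notch partner CSL, GGCGCC for BMP-SMAD complexes, ATCAAAG for TCF factors, GAANNTTC for heat shock factors and TGACGTCA for CREB. They occur in 5.42%, 9.59%, 3.21%, 6.69% and 1.55% of 32851 RefSeq promoter windows of the same length. A match describes letters and no binding site.
Wnt9b promoter: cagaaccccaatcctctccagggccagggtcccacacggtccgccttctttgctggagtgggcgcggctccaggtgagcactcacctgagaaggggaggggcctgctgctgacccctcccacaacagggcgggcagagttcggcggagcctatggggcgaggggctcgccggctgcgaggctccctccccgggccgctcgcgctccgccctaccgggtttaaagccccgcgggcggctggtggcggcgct

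Wnt9b stood at 6.77 CPM (5.61 to 8.09, 120 UMIs) in the Mfap2+/+ endothelial gate and at 4.0 CPM (3.29 to 4.81, 112 UMIs) in the Mfap2-/- gate, a log2 ratio of -0.76 (-1.14 to -0.37). In cells that passed no other gate it was at 16.7 and 7.16 CPM, a log2 ratio of -1.21. The sinusoidal sub-gate held 18 and 19 Wnt9b UMIs, and the interval of its ratio lay on both sides of 0, at -0.89 (-1.90 to 0.13). The larger part lay in cells with both sinusoidal and vascular UMIs, at 20.3 and 12.3 CPM. Wnt9b UMIs were found in 3.93% and 3.40% of endothelial cells, and in 1.10% and 0.652% after thinning. The 5 richest cells held 27.5% and 20.5% of its UMIs. Stellate cells of both libraries had 0 Wnt9b UMIs, which allows up to 3.58 and 3.33 CPM. The genes most like Wnt9b were Rspo3 (r 0.31 and 0.37) and Cdh13 (0.29 and 0.31).

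Rspo3 (ENSMUSG00000019880, reverse strand, chr10:29452416-29535867) stood at 179.5 CPM (173 to 186, 3184 UMIs) in the Mfap2+/+ endothelial gate and at 160.5 CPM (156 to 165, 4494 UMIs) in the Mfap2-/- gate. The log2 ratio was -0.16 (-0.23 to -0.10), but it was not the same in all parts of the gate. It was -0.54 (-0.64 to -0.44) in cells that passed no other gate (422 and 290.4 CPM), 0.00 in the sinusoidal sub-gate (54.4 and 54.6 CPM) and -0.85 in the vascular sub-gate (644 and 356 CPM), where 78 and 62 cells contributed. The vascular sub-gate was rich in Dcn, and its gene Plvap was at 652 and 457 CPM in stellate cells, against 95.7 and 56.8 CPM in the endothelial gate. Cells with both sets of UMIs held 508 and 491 CPM. Rspo3 was found in 21.5% and 20.3% of endothelial cells, and after thinning in 10.2% and 9.50%, against 0.968% and 0.679% of B cells. The single richest cells held 90 and 100 of its UMIs, and the 5 richest held 10% and 9.21%.

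Stellate cells were a second source of Rspo3. In the 119 and 111 cells that passed the stellate gate alone it stood at 368 CPM (328 to 411) and 267 CPM (234 to 303), a log2 ratio of -0.46 (-0.71 to -0.22). In a wider set defined after seeing the data, 350 and 380 cells whose stellate UMIs exceeded their endothelial and macrophage UMIs, Rspo3 stood at 159.7 and 139 CPM, a log2 ratio of -0.20 (-0.33 to -0.07). A cell of this wider set could also be in the endothelial gate. Rspo3 overlaps the exons of an antisense gene, Gm48159, that had 10 and 7 UMIs over all cells. The genes most like Rspo3 in endothelial cells were Cdh13 (r 0.58 and 0.61) and Selp (0.56 and 0.54), Selp encoding the adhesion molecule P-selectin.

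Of 18 other Wnt pathway genes, 17 had at least 20 UMIs in the endothelial gate. Among these, 2 were at least 1.5-fold higher in the Mfap2-/- library, against 17.4% of all genes, and 1 was lower, against 7.48%. The median log2 ratio of the 17 was 0.27. The higher ones were Znrf3, from 43.9 to 68.9 CPM (log2 ratio 0.65, 0.53 to 0.77), and Lef1, a TCF-family factor abundant in T cells, from 3.83 to 16.0 CPM. The lower one was Sfrp1, a secreted Wnt antagonist, from 11.1 to 3.75 CPM. In cells that passed no other gate Znrf3 had a log2 ratio of 0.61, but Lef1 had 0.40 (-0.44 to 1.42) and Sfrp1 0.11 (-1.56 to 2.44, 4 and 9 UMIs), so neither call held there. The list had 2 higher and 0 lower of 15 genes in those cells, and 3 higher and 3 lower of 17 in the sinusoidal sub-gate. Axin2, a general Wnt target, stood at 6.43 and 5.96 CPM in the endothelial gate. Of the receptors, Fzd4 was highest in endothelial cells in both libraries (33.4 and 30.5 CPM), and the R-spondin receptor Lgr4 was highest in cholangiocytes, the bile duct cells (40.1 and 91.4 CPM from 14 and 35 UMIs). Hepatocytes, where the pericentral program is read, numbered 2 in each library, so the response of that cell type could not be described.

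Bmp2 and Bmp6 encode BMP ligands, which act through SMAD proteins. Bmp2 (ENSMUSG00000027358, forward strand, chr2:133552159-133562885) stood at 219 CPM (212 to 226, 3886 UMIs) in the Mfap2+/+ endothelial gate and at 473 CPM (465 to 481, 13245 UMIs) in the Mfap2-/- gate, a log2 ratio of 1.11 (1.06 to 1.16). Of the 16735 genes measured, 94.8% had a lower ratio. In cells that passed no other gate Bmp2 was at 582 and 1049 CPM (log2 ratio 0.85), and in the sinusoidal sub-gate at 300.1 and 614 CPM (1.03). In the vascular sub-gate it was at 117 CPM (98.1 to 139) and 135 CPM (115 to 158), intervals that overlap. The share of endothelial cells with a Bmp2 UMI was 48.5% and 67.9%, and 23.3% and 35.2% after thinning to equal depth.

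Stellate cells held Bmp2 at 72.9 and 67.8 CPM, where the log2 ratio of -0.10 (-0.64 to 0.43) has an interval on both sides of 0. B cells held it at 6.94 and 19.3 CPM, a log2 ratio of 1.43 (0.85 to 2.15), so the low level in cells without the signal was higher in the Mfap2-/- library too. The part of that low level in the endothelial ratio was not tested. The genes most like Bmp2 were Iigp1 (r 0.48 and 0.55), an interferon-inducible GTPase, and Dnase1l3 (0.47 and 0.49), a secreted nuclease.

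Bmp6 (ENSMUSG00000039004, forward strand, chr13:38345107-38500302) stood at 84.8 CPM (80.6 to 89.2, 1504 UMIs) and 125 CPM (121 to 129.5, 3509 UMIs) in the endothelial gate, a log2 ratio of 0.56 (0.48 to 0.65). This is just short of 1.5-fold, and the ratio was 0.50 in cells that passed no other gate and 0.42 in the sinusoidal sub-gate. Its share of positive endothelial cells was 29.0% and 42.8%, and 10.1% and 13.0% after thinning, against 0.538% and 0.815% of B cells. Cholangiocytes were a second place of Bmp6 UMIs, at 200.4 CPM (156 to 253, 70 UMIs) and 180.1 CPM (140 to 228, 69 UMIs), but 5 cells held 67.1% and 56.5% of them. Bmp6 shares exon sequence on the opposite strand with Txndc5, which had 2560 and 3374 UMIs over all cells, and the strand rule of the counting is not given in the sources used here. Bmp6 was most like Meis2 (r 0.35 and 0.37) and Adgrl4 (0.34 and 0.38).

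All 20 other BMP pathway genes had at least 20 UMIs in the endothelial gate. None was at least 1.5-fold higher in the Mfap2-/- library, against 17.4% of all genes, and the median log2 ratio was -0.11. Against 7.48% of all genes, 4 were at least 1.5-fold lower (the ligands Bmp7, Gdf2 and Bmp10 and the antagonist Nbl1). Those 4 had at most 8 UMIs in either library among cells that passed no other gate, where 0 of 15 genes were higher and 3 lower. In the sinusoidal sub-gate 2 of 19 were higher and 2 lower. The receptor Bmpr2 was highest in endothelial cells in both libraries, at 315 and 454 CPM (log2 ratio 0.53). Known BMP targets did not share 1 direction in the endothelial gate. Id1 stood at 262 and 202 CPM (-0.38, -0.43 to -0.32), Id2 at 785 and 575 CPM (-0.45) and Id3 at 951.5 and 709.9 CPM (-0.42), whereas the inhibitory SMADs Smad6 and Smad7 had log2 ratios of 0.26 and 0.32. These 5 kept their signs in cells that passed no other gate, at -0.72, -0.30, -0.64, 0.15 and 0.12.

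Hgf (ENSMUSG00000028864, forward strand, chr5:16553495-16620152) encodes the ligand of the receptor Met. Its promoter is shown because the gene had the highest ratio of the 10. RefSeq lists 2 start sites for Hgf, and the first is shown because the window of the second lies inside the transcribed span of the first. The 250 bases before the first, chr5:16553245-16553494 on the forward strand, held none of the 5 motifs and were 50.8% G and C, against 72% in Wnt9b.
Hgf promoter: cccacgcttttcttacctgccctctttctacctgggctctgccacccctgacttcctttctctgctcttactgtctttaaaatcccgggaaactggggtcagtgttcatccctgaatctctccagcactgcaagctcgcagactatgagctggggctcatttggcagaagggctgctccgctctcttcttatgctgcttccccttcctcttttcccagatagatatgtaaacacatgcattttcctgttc

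Hgf stood at 131.5 CPM (126 to 137, 2332 UMIs) in the Mfap2+/+ endothelial gate and at 333.5 CPM (327 to 340.3, 9337 UMIs) in the Mfap2-/- gate. The log2 ratio was 1.34 (1.28 to 1.41), and 96.7% of genes had a lower one. It was 1.21 in cells that passed no other gate, from 257 to 594 CPM, and 1.47 in the sinusoidal sub-gate, from 149 to 413 CPM. The vascular sub-gate, the part of the gate rich in Dcn, had Hgf at 466 CPM and 457 CPM, a log2 ratio of -0.03, with 70.1% and 79.1% of its UMIs in 5 cells. Over the whole gate the 5 richest cells held 17.5% and 13.7%, and the single richest held 186 and 368 UMIs. Cells with more endothelial than stellate and macrophage UMIs, a set chosen after seeing the data, held 1418 and 7274 of the Hgf UMIs. The richest cell of that set had 46 and 324 UMIs, and the log2 ratio there was 1.36 (1.28 to 1.44). Hgf UMIs were found in 39.6% and 57.9% of endothelial cells, and in 13.5% and 21.1% after thinning.

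In stellate cells, the classical source of Hgf, the level was 886 CPM (824 to 952, 742 UMIs) in the Mfap2+/+ library and 1438 CPM (1360 to 1518, 1294 UMIs) in the Mfap2-/- library. The log2 ratio was 0.70 (0.57 to 0.83), in a gate where 25.7% of 8733 genes were at least 1.5-fold higher, and 5 cells held 53.6% and 59% of the Hgf UMIs. Of the 10 signals, 3 had at least 20 UMIs in this gate, and Hgf was the 1 past 1.5-fold, where 43.4% of genes were past it either way. In the wider stellate set it stood at 440.3 and 767 CPM, a log2 ratio of 0.80 (0.73 to 0.87). There 2 of 8 signals were at least 1.5-fold higher in the Mfap2-/- library, Hgf and Efnb2, against 17.1% of genes, and 1 was lower, Inhbb, against 8.21%. This wider set shares cells with the endothelial gate, so these values are not those of stellate cells alone. In cells that passed the stellate gate alone, Efnb2 had 6 and 12 UMIs and Inhbb 4 and 0. Macrophages and monocytes held Hgf at 36.5 and 58.8 CPM (0.69, 0.54 to 0.85). B cells held 8.88 and 19.1 CPM (1.07, 0.55 to 1.71), and 0.753% and 1.83% of them had an Hgf UMI after thinning. Hgf was thus higher in the Mfap2-/- library in each of these gates, endothelial, stellate, macrophage and B.

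The genes most like Hgf across endothelial cells were Adam23 (r 0.35 and 0.39) and Stab2 (0.34 and 0.37), the latter a scavenger receptor of sinusoidal cells. Its receptor Met was highest in cholangiocytes, at 71.6 and 159 CPM from 25 and 61 UMIs. Of 6 HGF pathway genes, none was at least 1.5-fold higher in the Mfap2-/- endothelial gate, against 17.4% of all genes. Against 7.48% of all genes, 1 was lower, the activating protease gene Hpn, at 44 and 27.3 CPM (log2 ratio -0.69). Hpn was at 7.41 and 8.45 CPM in cells that passed no other gate, a log2 ratio of 0.16 (-0.48 to 0.89), so its direction did not hold there. The list had 0 higher and 1 lower of 5 genes in those cells, and 0 higher and 2 lower of 6 in the sinusoidal sub-gate.

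Inhbb (ENSMUSG00000037035, reverse strand, chr1:119415465-119422248) encodes the beta B subunit of activins and inhibins, ligands of the TGF-beta family. Its promoter is shown as that of the other gene past 1.5-fold downwards. The 250 bases before its start site, chr1:119422249-119422498 on the reverse strand, held 1 heat shock core, GAANNTTC, from position -227 counted from the start site, printed in capitals.
Inhbb promoter: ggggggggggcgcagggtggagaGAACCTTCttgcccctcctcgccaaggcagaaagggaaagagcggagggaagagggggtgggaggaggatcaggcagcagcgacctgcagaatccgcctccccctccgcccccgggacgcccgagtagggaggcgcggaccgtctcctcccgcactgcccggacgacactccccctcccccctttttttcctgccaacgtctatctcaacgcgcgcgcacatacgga

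Inhbb stood at 58.4 CPM (54.9 to 62.1, 1036 UMIs) in the Mfap2+/+ endothelial gate and at 28.4 CPM (26.5 to 30.4, 795 UMIs) in the Mfap2-/- gate, a log2 ratio of -1.04 (-1.18 to -0.91). Only 1.89% of genes had a lower ratio. The value was -1.28 in cells that passed no other gate (143 and 59.0 CPM), -1.11 in the sinusoidal sub-gate (60.5 and 28.1 CPM) and -1.47 in the vascular sub-gate (64.1 and 22.6 CPM). The share of positive cells was 26.8% and 18.6%, and 7.49% and 3.07% after thinning. Unlike Bmp2 and Hgf, it was lower in Mfap2-/- B cells as well, from 3.33 to 1.05 CPM, 12 and 8 UMIs. Inhbb was most like Aqp1 (r 0.35 and 0.31), a water channel, and Gng11 (0.30 and 0.28), a G protein subunit.

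Of 9 activin pathway genes, 8 had at least 20 UMIs in the endothelial gate, with a median log2 ratio of 0.14. None was at least 1.5-fold lower in the Mfap2-/- library, against 7.48% of all genes. The receptor Acvr2a was the 1 gene at least 1.5-fold higher, against 17.4% of all genes, at 36.1 and 54.8 CPM (log2 ratio 0.60). Its log2 ratio was 0.55 in cells that passed no other gate and 0.47 in the sinusoidal sub-gate, both short of 1.5-fold. There 0 genes were higher, with 1 of 4 lower in the former and 2 of 6 in the latter. Acvr2a was highest in stellate cells in both libraries, at 52.5 and 106.7 CPM. Inhba, which encodes the beta A subunit, stood at 4.0 and 4.54 CPM in the endothelial gate and was highest in neutrophils (30.5 and 38.5 CPM).

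Kit (ENSMUSG00000005672, forward strand, chr5:75574916-75656722) encodes the receptor of stem cell factor and marks pericentral endothelial cells in normal liver. In the endothelial gate it stood at 59.5 CPM (56.0 to 63.2, 1056 UMIs) and 74.7 CPM (71.5 to 77.9, 2090 UMIs), a log2 ratio of 0.33 (0.22 to 0.43). In cells that passed no other gate the ratio was -0.02 (158.6 and 156 CPM), and in the sinusoidal sub-gate it was 0.15. Kit UMIs were found in 31.7% and 40.8% of endothelial cells, and in 8.65% and 10.7% after thinning. T and NK cells, a class that can include Kit-bearing innate lymphoid cells, held Kit at 99.7 CPM (92.3 to 107.6) and 79.3 CPM (73 to 86.0), a log2 ratio of -0.33 (-0.49 to -0.17). Conventional dendritic cells held 100 and 107 CPM. B cells held 3.61 and 8.64 CPM. Within endothelial cells Kit was most like Plpp1 (r 0.34 and 0.34) and Wnt2 (0.39 and 0.31). Kitl, the ligand gene, was highest in endothelial cells in both libraries, at 137.5 and 196 CPM (log2 ratio 0.51).

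Dll4 and Efnb2 are signals of the arterial side: Dll4 is a membrane ligand of Notch receptors, and Efnb2 encodes ephrin-B2, the ligand of the venous receptor Ephb4. Dll4 (ENSMUSG00000027314, forward strand, chr2:119325784-119335962) stood at 19.6 CPM (17.6 to 21.7, 347 UMIs) and 22.1 CPM (20.4 to 24.0, 620 UMIs) in the endothelial gate. The log2 ratio of 0.18 (-0.01 to 0.37) has an interval that reaches 0, and it was -0.11 in cells that passed no other gate and -0.05 in the sinusoidal sub-gate. Dll4 UMIs were found in 14.2% and 19.6% of endothelial cells, and in 3.72% and 4.01% after thinning. It was at most 2.86 CPM, 1 UMI, in the other gates with at least 50 cells. Its exons overlap those of Gm14207 on the opposite strand, which had 134 and 200 UMIs over all cells. Dll4 was most like Ldb2 (r 0.29 and 0.29) and Fbxl7 (0.29 and 0.26).

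Efnb2 (ENSMUSG00000001300, reverse strand, chr8:8617434-8661242) was the third gene past 1.5-fold upwards. The 250 bases before its start site, chr8:8661243-8661492 on the reverse strand, held the GGCGCC motif from positions -201 and -156, printed in capitals. The same motif was found in the Wnt2 window from position -175, and of the other members in the table none held it.
Efnb2 promoter: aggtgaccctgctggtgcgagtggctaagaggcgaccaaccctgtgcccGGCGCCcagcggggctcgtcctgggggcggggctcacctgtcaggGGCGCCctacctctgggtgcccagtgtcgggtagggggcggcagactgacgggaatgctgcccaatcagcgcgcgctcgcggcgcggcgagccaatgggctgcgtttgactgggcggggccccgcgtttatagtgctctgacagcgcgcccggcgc

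Efnb2 stood at 54.6 CPM (51.2 to 58.1, 968 UMIs) in the Mfap2+/+ endothelial gate and at 89.0 CPM (85.5 to 92.5, 2491 UMIs) in the Mfap2-/- gate, a log2 ratio of 0.70 (0.60 to 0.81). It was 0.58 in cells that passed no other gate (131 and 197 CPM) and 0.67 in the sinusoidal sub-gate (74.6 and 118.5 CPM). The vascular sub-gate went the other way, at 60.7 and 40.8 CPM from 70 and 47 UMIs, a log2 ratio of -0.56 (-1.14 to -0.02). Positive endothelial cells made up 25.3% and 38.5%, and 7.37% and 11.1% after thinning, against 0.860% and 1.36% of B cells. In B cells Efnb2 was at 6.94 and 10.6 CPM, a log2 ratio of 0.57 (-0.05 to 1.32). Efnb2 was most like Sema6a (r 0.32 and 0.35) and Adam23 (0.32 and 0.37).

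Of 14 Notch pathway genes, 13 had at least 20 UMIs in the endothelial gate, with a median log2 ratio of -0.16. None was at least 1.5-fold higher in the Mfap2-/- library, against 17.4% of all genes, and 2 were lower, against 7.48%. The first was Hes1, a general Notch target, at 242 and 126 CPM (log2 ratio -0.94, -1.01 to -0.88). It was -0.62 in cells that passed no other gate and -0.84 in the sinusoidal sub-gate. The second was Heyl, at 1.69 and 0.786 CPM from 30 and 22 UMIs. The list had 0 higher and 2 lower of 10 genes in cells that passed no other gate, and 2 higher and 1 lower of 11 in the sinusoidal sub-gate. Hey1, another Notch target, stood at 6.37 and 5.57 CPM (log2 ratio -0.20, -0.55 to 0.17). Ephb4 was highest in endothelial cells, at 38.7 and 37.4 CPM (log2 ratio -0.05, -0.19 to 0.09). None of the 7 ephrin pathway genes was past 1.5-fold in either direction in the whole gate, where 24.9% of all genes were. Of 4 measured in cells that passed no other gate, 2 were at least 1.5-fold lower, Efnb1 at 146 and 97.5 CPM (log2 ratio -0.59) and Efna1 at 47.9 and 30.7 CPM (-0.65). In the sinusoidal sub-gate 1 of 5 was higher, Epha4 at 0.73 (20 and 67 UMIs), and 1 lower, Ephb2 at -0.92 (27 and 28 UMIs).

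Genes that mark the liver targets of these signals were read in the endothelial gate as well, since hepatocytes were too few. Of 7 such genes, 2 were at least 1.5-fold higher in the Mfap2-/- gate, against 17.4% of all genes. These were Cyp2e1 (5.36 and 34.0 CPM) and Hamp, which encodes hepcidin (18.6 and 50.4 CPM). Cyp2e1 is itself a gene of the hepatocyte gate, which 1 and 9 cells of the endothelial gate passed. Cells rich in Cyp2e1 are thus left out, by definition, of the set that passed no other gate. In cells that passed no other gate Cyp2e1 had a log2 ratio of 1.47 from 7 and 40 UMIs and Hamp 0.52 (-0.12 to 1.28). The list had 1 higher and 1 lower of 6 genes in those cells, and 2 higher and 1 lower of 7 in the sinusoidal sub-gate. Cyp2e1 and Hamp are hepatocyte genes, and the hepatocyte gene Alb stood beside them at 305 and 600.1 CPM in the same cells. Glul, a pericentral hepatocyte gene that other cells also express, was at 315 and 210.4 CPM.

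Several other measures differed between the libraries within the endothelial gate. A set of 7 immediate-early and heat shock genes (Fos, Jun, Egr1, Hspa1a, Hspa1b, Hsph1 and Dnajb1), chosen after seeing the data, summed to 12534 CPM in the Mfap2+/+ gate and 17039.7 CPM in the Mfap2-/- gate, with 7 of 7 higher. The same sum was 8162 and 14842.8 CPM in endothelial cells that passed no other gate, and 7479 and 12382.3 CPM in B cells. In the whole gate 10 genes of other cell types were read (Ptprc, Cd68, Lyz2, Cd79a, Cd3e, Alb, Apoa1, Col1a1, Dcn and Hbb-bs). Of these, 5 were higher and 5 lower, and their sum was 4045 and 3360 CPM. None of the 10 was at 0. Dcn was at 505 and 229 CPM, Lyz2 at 2250 and 1683 CPM, and Ptprc at 334 and 432 CPM. The haemoglobin gene Hbb-bs was at 360.1 and 84.5 CPM, a log2 ratio of -2.09. In stellate cells it was at 3298 and 91.1 CPM, a log2 ratio of -5.16. Alb, which was higher in the Mfap2-/- endothelial gate, was at 449 and 78.9 CPM in stellate cells. The part of these differences in the ratios of the 10 signals was not tested.

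The position of the signals along the lobule was read from landmark genes that are no members: Thbd and Cdh13 for the central side, and Ltbp4, Ntn4 and Adgrg6 for the portal side. Adgrg6 was at 50.1 and 52.7 CPM in macrophages and monocytes, against 39.7 and 50.6 CPM in the endothelial gate. Ltbp4 was at 109.9 and 90 CPM in stellate cells, against 36.9 and 41.6 CPM. Thbd, Cdh13 and Ntn4 were lower in both of those gates than in the endothelial gate. How many portal cells were mixed cells was not tested. Cells with UMIs of one side alone were compared, 241 central and 527 portal cells in the Mfap2+/+ endothelial gate and 332 and 657 in the Mfap2-/- gate, at median depths of 5929, 6123, 7899.5 and 7495 UMIs. Wnt2, Wnt9b, Rspo3 and Kit were higher on the central side in both libraries. Wnt2 stood at 131.5 CPM in central and 16.3 CPM in portal Mfap2+/+ cells, a log2 ratio of 3.0 (2.66 to 3.37), and at 70.3 and 16.6 CPM in Mfap2-/- cells, 2.08 (1.77 to 2.40). Rspo3 stood at 363 and 38.5 CPM (3.23, 3.02 to 3.46), and at 141.5 and 15.9 CPM (3.14, 2.86 to 3.45). Wnt9b rested on 17 and 5 UMIs in Mfap2+/+ cells and on 10 and 2 in Mfap2-/- cells, at log2 ratios of 3.12 and 3.04. These 4 genes kept the central side in the sinusoidal sub-gate, with log2 ratios of 2.14 and 1.83 for Wnt2, 3.84 and 3.19 for Rspo3, and 1.64 and 0.83 for Kit. For Wnt9b the intervals there reached below 0. Cdh13 is also among the 2 genes most like Wnt2, Wnt9b and Rspo3 across these cells, so the landmark and these 3 signals are not separate observations.

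Dll4, Efnb2 and Bmp6 were higher on the portal side in both libraries. The log2 ratio of central over portal cells was -0.87 (-1.65 to -0.26) and -1.44 (-1.99 to -0.99) for Dll4, -0.45 and -0.81 for Efnb2, and -0.39 and -0.75 for Bmp6. In the sinusoidal sub-gate all 3 kept the sign in both libraries, at -0.58 and -1.38, -0.31 and -0.69, and -0.70 and -0.59, although the Mfap2+/+ intervals of Dll4 and Efnb2 reached above 0. In the endothelial gate the remaining 3 signals had intervals apart from 0 in the Mfap2+/+ library and intervals that included 0 in the Mfap2-/- library. Bmp2 was at 0.67 (0.51 to 0.82) and 0.08 (-0.01 to 0.16). Inhbb was at 1.19 (0.86 to 1.5) and 0.21 (-0.23 to 0.61), and Hgf at -0.75 (-0.99 to -0.52) and 0.06 (-0.04 to 0.16). The sinusoidal sub-gate did not show this pattern. There Inhbb was at 0.28 (-0.25 to 0.75) and -0.08 (-0.64 to 0.43), and Hgf at 0.11 (-0.21 to 0.40) and 0.28 (0.16 to 0.39). Both Bmp2 intervals lay above 0 there.

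The central-to-portal contrast of Kit was also smaller in the Mfap2-/- library, at 1.92 (1.64 to 2.22) against 0.78 (0.56 to 0.99). For Wnt2, Bmp2, Inhbb and Kit the Mfap2-/- interval lay wholly below that of the Mfap2+/+ library in the endothelial gate. In the sinusoidal sub-gate this was so for Bmp2 (0.50, 0.30 to 0.69, and 0.14, 0.03 to 0.24) and for Kit (1.25 to 2.03 and 0.57 to 1.09), and not for Wnt2 or Inhbb. The landmark genes themselves differed between the libraries in the endothelial gate, with log2 ratios of -0.54 for Thbd, 0.56 for Cdh13, 0.17 for Ltbp4, -0.20 for Ntn4 and 0.35 for Adgrg6. Their part in the contrast was not tested.

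**Figure D3:**
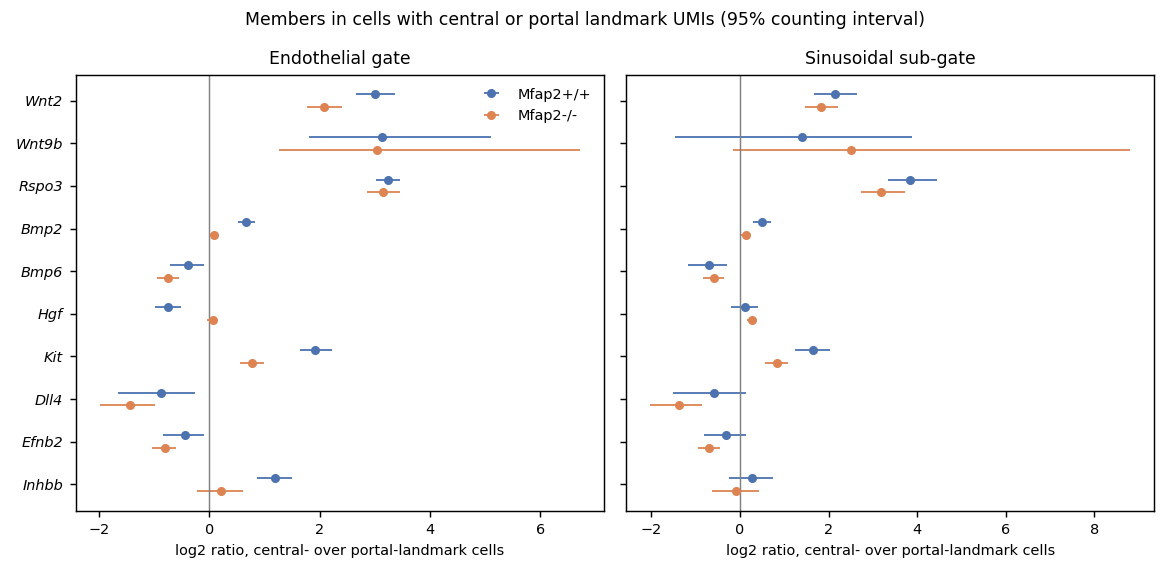
Log2 ratio of CPM in cells with central landmark UMIs alone over cells with portal landmark UMIs alone (horizontal axis), for each signal and library, in the endothelial gate and its sinusoidal sub-gate; lines are 95% counting intervals. Wnt2, Rspo3 and Kit lie to the right of 0, and Dll4, Efnb2 and Bmp6 to the left, in both libraries.

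Single endothelial cells carried the signals in combination. None of the 10 was found in 18.5% of Mfap2+/+ and 7.83% of Mfap2-/- endothelial cells, 1 in 18.5% and 14.8%, 2 to 3 in 30% and 31.6%, and 4 or more in 33% and 45.8%. After thinning to 1000 UMIs, 2 to 3 signals were found in 24.9% and 32.8% of cells and 4 or more in 2.68% and 2.65%. Among thinned B cells, 0 of 930 in the Mfap2+/+ library and 5 of 1472 (0.34%) in the Mfap2-/- library carried 2 to 3, and none carried 4 or more.

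Co-occurrence of each pair was set against the number of cells expected if the 2 genes were independent within depth quintiles. Depth still varied within each of these 5 strata. All 45 pairs had at least 5 expected cells in both libraries. The odds ratio was above 1 in both libraries for 37 pairs, at 2 or more in both for 20, and below 1 in both for 4. Since part of the gate lacked other endothelial genes, the same counts were made in the sinusoidal sub-gate, where they were 24, 5 and 7 of 40 pairs. With cells thinned to 1000 UMIs the counts were 24, 5 and 3 of 32 pairs. Pairs of other genes were not counted, so these numbers have no background share beside them. Whether other endothelial genes pair as often in this mixed gate was not tested.

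The 2 highest odds ratios in both libraries lay within the Wnt arm. Wnt2 and Wnt9b were found together in 58 Mfap2+/+ cells (19.1 expected, odds ratio 18.9) and 60 Mfap2-/- cells (21.4 expected, 13.6). Wnt9b and Rspo3 shared 53 cells (15.8 expected, 15.7) and 60 cells (16.5 expected, 15.7). Wnt2 and Rspo3 shared 188 cells (91.4 expected, 5.75) and 218 cells (115 expected, 4.27), and in the sinusoidal sub-gate their odds ratio was 3.17 and 2.35. Kit joined them: with Wnt2 its odds ratio was 5.83 and 3.98 in the endothelial gate and 3.35 and 2.99 in the sinusoidal sub-gate. With Rspo3 it was 2.18 and 1.85 in the endothelial gate. Inhbb joined them there too, at 3.93 and 2.69 with Wnt2, 4.79 and 2.43 with Wnt9b, and 3.06 and 2.44 with Rspo3. In the sinusoidal sub-gate Inhbb with Wnt2 was at 1.77 and 1.28, and with Rspo3 at 1.62 and 1.93. After thinning, Inhbb with Rspo3 was at 3.06 and 3.51, but with Wnt2 at 1 and 1.51, from 10 and 6 cells. Inhbb with Wnt9b had fewer than 5 expected cells in both of these settings.

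Dll4 and Efnb2 shared 123 Mfap2+/+ cells (68.5 expected, odds ratio 3.42) and 268 Mfap2-/- cells (177 expected, 3.06), and in the sinusoidal sub-gate the odds ratio was 2.0 and 1.93. They were not a pair apart: in the endothelial gate Bmp6 had odds ratios of 2.66 and 2.35 with Dll4 and 2.73 and 3.57 with Efnb2. The 4 pairs below 1 in both libraries each joined Dll4 or Efnb2 to Rspo3 or Wnt9b. Wnt9b and Dll4 were found together in 4 cells (11.3 expected, odds ratio 0.305) and 5 cells (15.6 expected, 0.261). Rspo3 and Dll4 shared 36 cells (53 expected, 0.57) and 49 cells (86.7 expected, 0.438), and kept 0.573 and 0.29 in the sinusoidal sub-gate. For Rspo3 and Efnb2 the odds ratio was 0.738 and 0.809, and for Wnt9b and Efnb2 it was 0.981 and 0.583.

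The BMP ligands and Inhbb overlapped with one another, but not with one another alone. Bmp2 and Bmp6 had odds ratios of 3.48 and 3.35 in the endothelial gate and 2.41 and 2.02 in the sinusoidal sub-gate. Bmp2 and Inhbb had 4.22 and 7.13, and 2.62 and 4.62 in the sinusoidal sub-gate, although their levels differed between the libraries in opposite directions. Bmp6 and Inhbb had 2.46 and 2.76 in the endothelial gate. There Bmp2 also had 3.07 and 2.71 with Kit, 3.28 and 2.52 with Dll4, and 2.93 and 3.15 with Efnb2. After thinning, Bmp2 with Inhbb was at 1.66 and 1.66, and with Hgf at 1.94 and 2.24. Hgf and the Wnt arm had odds ratios of 1.42 and 1.19 with Wnt2, 1.17 and 1.19 with Wnt9b, and 1.23 and 0.821 with Rspo3.

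**Figure D4:**
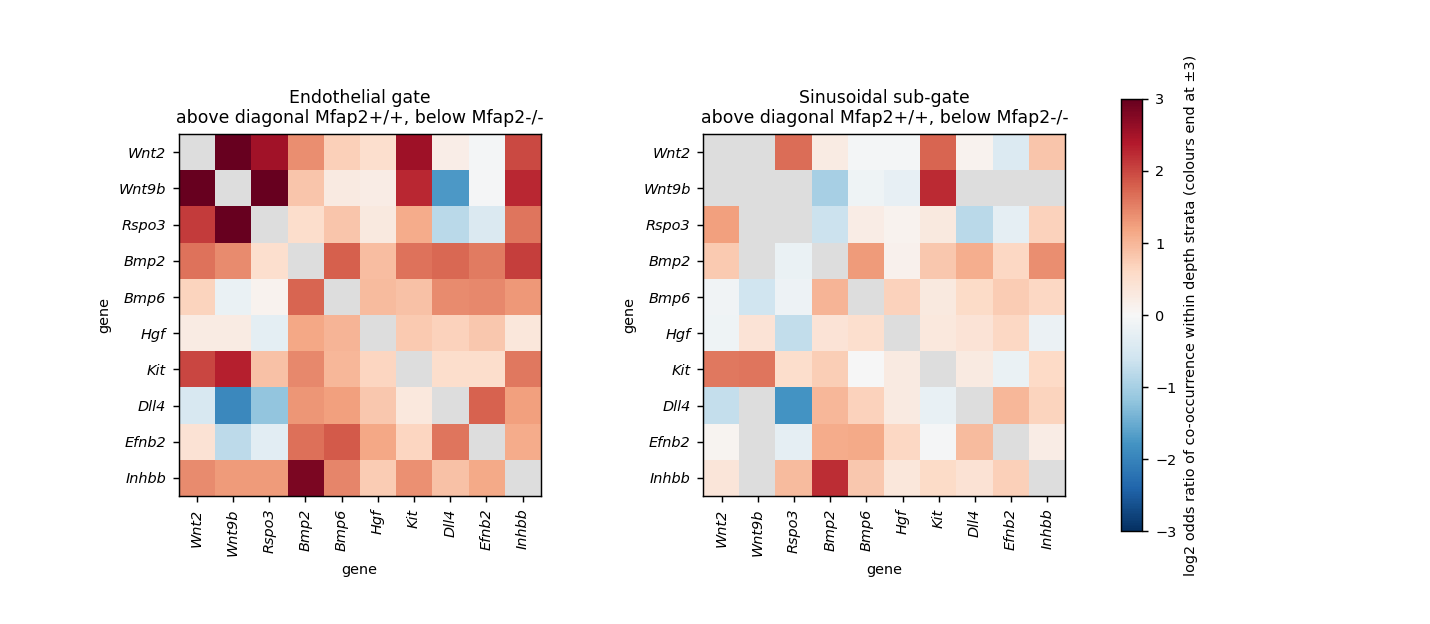
Log2 odds ratio of finding 2 signals in the same cell within depth strata (colour, ending at 3 either way), with Mfap2+/+ above and Mfap2-/- below the diagonal, in the endothelial gate and the sinusoidal sub-gate; grey marks pairs with fewer than 5 expected cells in a library and the diagonal. In the endothelial gate Wnt2, Wnt9b, Rspo3 and Kit are red with one another and also with Inhbb. There Dll4 and Efnb2 are red with each other and also with Bmp2 and Bmp6. Rspo3 with Dll4 is blue in both libraries and both panels.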

How the data were processed

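Raw UMI counts per gene and barcode were deposited by the authors for 2 libraries, made with Chromium 3' v3 chemistry per the labels' protocols. The file headers name Cell Ranger 7.0.1, whereas the submitters' processing notes name Cell Ranger 3.1.0, Seurat and mm10. The treatment of intronic reads is not given in the sources used here. Barcodes below 200 genes or above 20% mitochondrial UMIs were dropped (413 and 149), and 1034 and 1295 doublets were removed by Scrublet score in scanpy 1.11.5 at 0.8% per 1000 cells.

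Marker gates needed at least 3 UMIs (hepatocytes 20). Cells outside the endothelial gate counted for another gate only when they passed that gate alone. Counts were summed per gate and library and given as CPM. Log2 ratios are Mfap2-/- over Mfap2+/+ with 1 count added to each sum. Intervals at 95% are Poisson for CPM, Clopper-Pearson for shares and exact conditional for ratios, and a count of 0 is given with the limit of 3 counts. Thinning drew 1000 UMIs per cell and left out 63 and 62 endothelial cells. Odds ratios are Mantel-Haenszel over 5 depth strata. GENCODE M21 held 99.8% of the 32285 gene identifiers, and 8 of 10 members matched the RefSeq promoter table (Rspo3 and Bmp2 did not).

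Beside the members, genes were named by rule: the 2 most like each member by the lower Pearson r of both libraries, list genes past 1.5-fold with a mean of at least 50 CPM, and receptors with their highest gate. Other list genes named were chosen after their values were seen. The members and lists were chosen with earlier results of these data known. The counting and ratio steps were tested on simulated data. Alternatives tried were the gate, the cell and doublet filters, thinning, scaling and richest cells.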

Additional observations from a re-analysis of the deposited data

How the results depend on the processing

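No paired analysis was possible because each genotype has 1 library. Over 14 alternatives the log2 ratio of Mfap2-/- over Mfap2+/+ in the endothelial gate ranged from 0.78 to 1.18 for Bmp2, 1.04 to 1.64 for Hgf, 0.41 to 0.82 for Efnb2, 0.39 to 0.73 for Bmp6, -1.40 to -0.94 for Inhbb, -1.21 to -0.49 for Wnt9b, -0.52 to -0.09 for Wnt2, -0.54 to 0.05 for Rspo3, -0.06 to 0.38 for Kit and -0.18 to 0.26 for Dll4. The sign changed for the last 3: for Rspo3, at 0.05 with cells thinned before gating, for Dll4, at -0.11 in cells that passed no other gate, -0.01 thinned before gating, -0.03 thinned before summing and -0.18 in cells with more endothelial than stellate and macrophage UMIs, and for Kit, at -0.02 in cells that passed no other gate and -0.06 in that last set, which was chosen after seeing the data. Members at least 1.5-fold lower numbered 1 with no doublets removed and 1 with the mean of per-cell CPM, where the total was 3. Hgf in stellate cells was at 1.86 with 2 gate UMIs, 0.50 with 5, 0.55 thinned before gating, 0.55 with median-of-ratios scaling and 0.51 without the 5 richest cells. The endothelial share ratio was 0.34 with 2 gate UMIs, and 0.16 with cells thinned to 1000 UMIs before gating at 2 gate UMIs. Pairs with an odds ratio of 2 or more in both libraries numbered 5 after thinning and 5 in the sinusoidal sub-gate. The cause was not tested. Kit was below 2-fold over other cells with 2 gate UMIs, with stricter cell filters and with median-of-ratios scaling, the last for Hgf too. Depth limits Wnt9b most, at 120 and 112 UMIs.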
